A study of Mus musculus with 8 samples.

Results

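Kit, the receptor tyrosine kinase also called c-Kit, and Kitl, its ligand, known as stem cell factor, were followed in tumor endothelial cells of mice. They were taken by their symbols from the authors' gene table and are 2 of its 35756 rows. The study compared 4 Tie2-CreERT2;PPARβ/δ + Tamoxifen mice with 4 Tie2-CreERT2;PPARβ/δ + vehicle mice to find genes that respond to PPARβ/δ in the tumor endothelium. PPARβ/δ is a nuclear receptor, encoded by Ppard, that works as a transcription factor. Both groups are listed as C57BL/6 and, in the methods, carry an inducible Tie2-driven Cre together with a PPARβ/δ-flox allele. Tamoxifen activates the Cre and thereby switches on additional PPARβ/δ in cells with an active Tie2 promoter, which are mainly endothelial. In the labels the genotype of the vehicle mice is given as wild-type. Tamoxifen in sunflower oil (33 mg/kg per day) or the oil alone was given for 1 week. LLC1 Lewis lung carcinoma cells were implanted 1 week afterwards, and tumors were taken after 3 weeks of growth. Cells were then captured with beads against CD31, an endothelial surface protein encoded by Pecam1. Tamoxifen itself and the activated Cre cannot be told apart from the additional PPARβ/δ, because no Tamoxifen-treated library without the allele was analysed here.

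Kit sits in the cell membrane. When dimers of its ligand bind, paired receptors phosphorylate each other and pass the signal to PI3 kinase, Ras and MAP kinases and Src family kinases. Kit is best known from hematopoietic stem cells, mast cells, melanocytes and germ cells, and a share of endothelial cells carries it too. Kitl is made by stromal and endothelial cells as a membrane-bound protein that proteases can release.

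Each library (oil2453 or Tax2604, for example) was taken as 1 mouse, and p-values judge the difference between the groups against the spread between these libraries. They held 19730726 to 24884372 counts. Values below are counts per 1e+06 (CPM) scaled by TMM, a normalization that sets most genes level, unless FPKM (per kilobase of gene length and per 1e+06 reads) is named. No gene of the 14539 tested was called by edgeR's quasi-likelihood test at an adjusted p under 0.05, a share of 0% (lowest adjusted p = 0.0732), with 1590 at an unadjusted p below 0.05, and DESeq2 called 574 (3.95%). The groups did not overlap for 853 genes with Tamoxifen higher (5.87%) and 292 with Tamoxifen lower (2.01%). The vehicle library oil2453 stood apart, with a TMM factor of 0.761 compared to 0.947 to 1.10 in the others, and without it edgeR called 256 of 14860 genes (1.72%). Ppard was at 118 to 122 CPM in 3 Tamoxifen libraries but at 70.8 CPM in Tax2689, within the vehicle range of 53.3 to 88.2 CPM. Ppard had a log2 fold change of 0.53 (SE 0.25, edgeR adjusted p = 0.461). Whether reads of the additional PPARβ/δ allele were counted under Ppard is not stated, so its level may not show the overexpression in full. Reads of Ddx3y, a Y-linked gene, were found in oil2315, oil2368 and Tax2689 (74.7, 17.1 and 110 CPM) and were at most 0.181 CPM in the other 5 libraries, although the methods call the animals sex-matched.

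Because counts were summed over each gene, the known splice forms of receptor and ligand were not separated. In GENCODE M21 the transcripts Kit-201 and Kit-204 differ by 12 coding bases, and Kitl-202 and Kitl-201 differ by 84. The extra bases are shown in capitals, with the neighboring coding bases in lower case, because they decide which receptor and which ligand a count could stand for.
Kit-201: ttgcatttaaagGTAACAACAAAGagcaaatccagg
Kitl-202: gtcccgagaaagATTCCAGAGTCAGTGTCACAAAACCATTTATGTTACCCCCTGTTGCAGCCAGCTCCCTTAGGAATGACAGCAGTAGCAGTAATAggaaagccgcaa
The insert in Kit lies just outside the membrane and gives the receptor form known as GNNK+. The 84 bases of Kitl hold the main protease site, so that the ligand without them stays mostly on the cell surface. Levels of the forms were not measured here.

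The sequences before the genes were also read, because the study searched the Kit promoter for PPAR response elements. RefSeq windows of 250 bases before to 50 after the start (GRCm38.p6) were available for 2 of 2 genes. For Kit, the bases of this window before the first annotated start are printed, with a GC box (GGGCGG) in capitals, and for Kitl the 30 bases around a TATA box (TATAAA, capitals).
Kit, chr5:75574737-75574915, plus strand: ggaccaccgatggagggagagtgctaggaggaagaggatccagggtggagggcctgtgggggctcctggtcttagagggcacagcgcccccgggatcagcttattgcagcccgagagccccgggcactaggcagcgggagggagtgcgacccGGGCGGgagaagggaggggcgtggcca
Kitl, chr10:100015784-100015813, plus strand: gggagggagctgTATAAAaagcgctggcgg
Positions are counted from the start on which these windows are set, 75574987 for Kit and 100015821 for Kitl. In GENCODE M21 the genes begin before it, at 75574916 and 100015630, so that the TATA box of Kitl lies inside the annotated gene. The Kit window held 1 GC box, 98 bases before the start, and no TATA box. The Kitl window held 3 GC boxes and 1 TATA box, 25 bases before the start. GC boxes occur in 35.9% and TATA boxes in 14.2% of the 27025 RefSeq windows, on either strand. AGGTCA, the core of PPAR response elements, is in 16% of the windows and in neither of these. The GATA sites AGATAA (11.4% of windows) and TGATAA (9.26%) were not found in them either, and the E-box CANNTG (72.1%) occurred once in each, after the start. These letters are searched in short windows and say nothing about more distant sequence or about the elements that the study tested.

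The receptor was higher in every Tamoxifen library than in any vehicle library, an order that was not kept relative to endothelial markers. Kit (ENSMUSG00000005672, chromosome 5 from 75574916 to 75656722, plus strand, positions that match GRCm38) had 669, 184, 341 and 495 counts in the vehicle libraries oil2453, oil2315, oil2653 and oil2368. It had 1959, 1055, 1852 and 1281 counts in Tax2604, Tax2689, Tax2382 and Tax2455. Normalized, these were 40.3, 8.53, 14.6 and 22.6 CPM with vehicle. With Tamoxifen they were 96.2, 44.6, 78.6 and 49.1 CPM. The groups did not overlap, but they came close, because the lowest Tamoxifen library (Tax2689) was only 1.11 times the highest vehicle library (oil2453). By library size alone oil2453 was at 30.7 CPM instead of 40.3, and the ratio was 1.58. Tax2689 is also the Tamoxifen library whose Ppard level was within the vehicle range. However, Tax2455, where Ppard was within the 118 to 122 CPM of the other Tamoxifen libraries, had a Kit level nearly as low (49.1 CPM).

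On average Kit reached 67.1 ± 24.5 CPM after Tamoxifen and 21.5 ± 13.8 CPM after vehicle (mean ± SD of 4 libraries), a ratio of 3.12. This is a log2 fold change of 1.64 (SE 0.47, 95% interval 0.73 to 2.56 by a normal approximation, which is narrow for 4 libraries a group). It did not pass over all genes (edgeR adjusted p = 0.193), and Kit stood at place 439 of 14539 by p. Its change was larger in size than that of 96.1% of the genes tested. For this gene alone an exact two-sided permutation test over the 70 assignments of libraries gave p = 0.0286, the smallest that 4 against 4 allow. The study singled out Kit from these libraries and from its own PCR measurements, so this separation is not independent evidence. DESeq2 called it (log2 fold change 1.63, adjusted p = 0.0301), as did limma-trend on log2(FPKM + 1) (1.78, adjusted p = 0.0347), whereas limma-trend without a filter (adjusted p = 0.087) and limma-voom (adjusted p = 0.106) did not. Without oil2453 edgeR called it too (2.14, adjusted p = 0.042).

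The vehicle libraries spread more widely than the Tamoxifen libraries. From the lowest to the highest, Kit varied 4.73 times with vehicle (CV 64.2%) and 2.15 times with Tamoxifen (CV 36.5%). Counting error is small beside this spread, as the lowest count, 184 in oil2315, has a 95% Poisson interval of 158 to 213. This interval covers counting error only. The libraries with Ddx3y reads held the lowest Kit level of each group, oil2315 and Tax2689. Among the 5 libraries without such reads, Kit was at 40.3 and 14.6 CPM with vehicle and at 96.2, 78.6 and 49.1 CPM with Tamoxifen. Among the 3 with them it was at 8.53 and 22.6 CPM with vehicle and 44.6 CPM with Tamoxifen. Groups that do not overlap as a whole cannot overlap within such sets, so these are values only. The part of sex in the level of Kit was not tested.

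**Figure D1:**
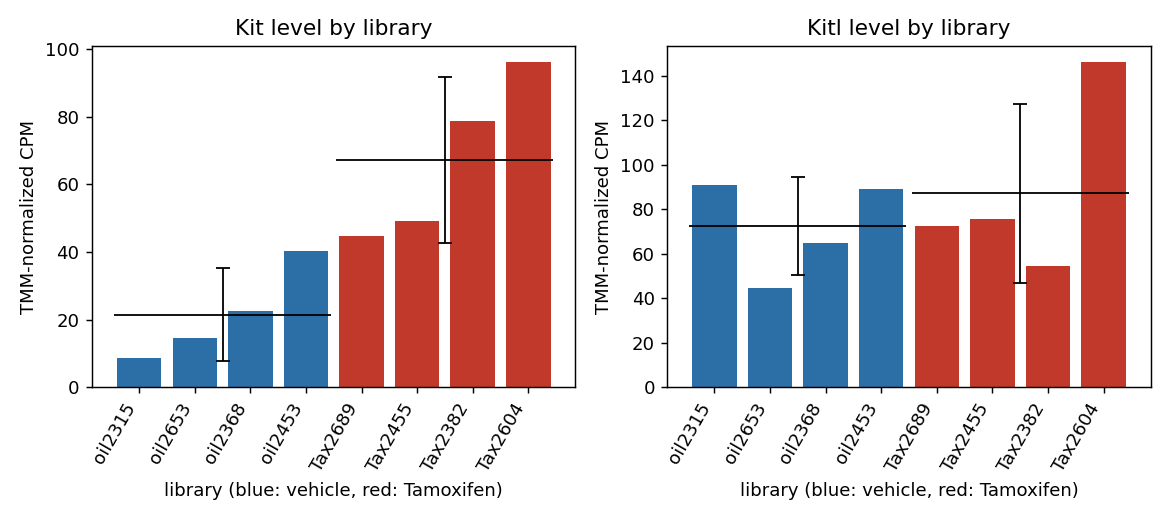
Kit (left) and Kitl (right) in TMM-normalized CPM in each library, with vehicle in blue and Tamoxifen in red. Horizontal lines are group means and error bars SD (n = 4). All Tamoxifen libraries are above all vehicle libraries for Kit (lowest 44.6 against highest 40.3 CPM, an order that is lost when levels are set against endothelial markers), while the groups overlap for Kitl.

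The ligand did not follow the receptor. Kitl (ENSMUSG00000019966, chromosome 10 from 100015630 to 100100413, plus strand) had 1475, 1965, 1046 and 1418 counts in oil2453, oil2315, oil2653 and oil2368. It had 2977, 1712, 1286 and 1969 counts in Tax2604, Tax2689, Tax2382 and Tax2455. In CPM it was at 88.9, 91.1, 44.8 and 64.7 with vehicle. With Tamoxifen it was at 146, 72.4, 54.6 and 75.5 CPM. The groups overlapped, and only Tax2604 was above the vehicle range. On average Kitl reached 87.2 ± 40.4 CPM after Tamoxifen and 72.4 ± 21.9 CPM after vehicle (mean ± SD of 4 libraries). This is a log2 fold change of 0.27 (SE 0.35, edgeR adjusted p = 0.783), with a 95% interval of -0.41 to 0.95 by the same normal approximation. The exact two-sided permutation test gave p = 0.657. This log2 fold change rested on Tax2604, since without this library it was -0.07.

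The Tamoxifen library with the most Kit also had the most Kitl (Tax2604), but the other libraries did not keep this order. Tax2382 had the next highest Kit level and the lowest Kitl level of its group. Among the vehicle libraries, oil2315 had the lowest Kit and the highest Kitl.

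Per gene length, the ligand was the more abundant transcript in all vehicle libraries. Kit was at 14.5, 4.32, 7.13 and 10.9 FPKM in oil2453, oil2315, oil2653 and oil2368, and Kitl was at 26.8, 38.6, 18.3 and 26.1 FPKM in the same libraries. With Tamoxifen, Kit was at 46.9, 23.0, 35.2 and 25.5 FPKM in Tax2604, Tax2689, Tax2382 and Tax2455. Kitl was at 59.7, 31.2, 20.5 and 32.8 FPKM in these. The quotient of Kit to Kitl in FPKM was thus 0.112 to 0.542 with vehicle and 0.736 to 1.72 with Tamoxifen. Only in Tax2382 was the receptor above the ligand. On the log2(CPM + 0.5) scale the ratio of Kit to Kitl differed by 1.54 between the group means (standard error 0.57), 2.91-fold higher with Tamoxifen. All 4 Tamoxifen libraries (-0.69 to 0.52) were above all vehicle libraries (-3.34 to -1.13). The size of the difference depended on oil2315, at -3.34, since without it the difference was 1.06. With all libraries the exact two-sided permutation test gave p = 0.0286. Differences of 0.44 to 3.86 are not rejected by this test. The ratio mostly restates the difference of Kit itself (log2 fold change 1.64, beside 0.27 for Kitl). As the study singled out Kit from these libraries, the separation of the ratio is not independent evidence. Whether it is particular to this pair of genes was not tested. A ratio of genes within 1 library hardly depends on the scaling, but it does not say in which cells the transcripts were.

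The transcripts of endothelial markers moved with the groups as well. The 22 pan-endothelial markers summed to 3419 to 6686 CPM with Tamoxifen and to 485 to 2356 CPM with vehicle. Of these, 19 of 22 did not overlap between the groups, all with Tamoxifen higher (86.4%, beside 5.87% of all genes). None of the markers was called by edgeR, with 20 of 22 under an unadjusted p of 0.05. Their median log2 fold change was 2.14, compared to -0.03 over all genes tested. Among them Cdh5, the cadherin of endothelial junctions, had a log2 fold change of 2.74 (adjusted p = 0.0732, edgeR) and Tek, the receptor Tie2, one of 2.83 (adjusted p = 0.125). In bulk libraries fewer cells of a type and less RNA per cell cannot be told apart. A change in endothelial content was not tested, nor its part in the level of Kit.

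Set against the 22 markers as a whole, Kit was not higher with Tamoxifen. The log2 level of Kit minus the mean log2 level of the markers was -0.55, -0.21, -0.81 and -0.84 in oil2453, oil2315, oil2653 and oil2368. It was -0.98, -1.42, -0.93 and -0.94 in Tax2604, Tax2689, Tax2382 and Tax2455. All Tamoxifen libraries were below all vehicle libraries, with a mean of -1.07 ± 0.24 compared to -0.60 ± 0.29 (SD, n = 4 each). The difference was -0.47 (standard error 0.19), which is 0.724-fold, with p = 0.0286 in the exact two-sided permutation test. The measure and the choice of markers mattered. Per 1000 counts summed over the same markers, Kit had 17.1, 17.6, 14.04 and 14.95 counts in oil2453, oil2315, oil2653 and oil2368. It had 14.4, 11.1, 13.3 and 14.4 in Tax2604, Tax2689, Tax2382 and Tax2455, and the groups overlapped. Relative to the median marker the difference was -0.39 and did not pass (exact permutation p = 0.314), and relative to Pecam1 alone it was 0.27 (exact permutation p = 0.514). In mean log2(CPM + 0.5), Kit differed more between the groups than 6 of the markers and less than 16. The differences ranged from -1.15 against Tek to 0.27 against Pecam1, with a median of -0.59. By edgeR's log2 fold changes some markers changed sides, as Emcn and Esam (each 1.58) were below Kit (1.644) and Eng (1.648) was barely above it. Pecam1, the antigen of the beads, had a log2 fold change of 1.50 (adjusted p = 0.0871, edgeR). Endoglin (Eng), a co-receptor for TGF-β family ligands, had the profile closest to Kit among the markers, with a log2 fold change of 1.65 (adjusted p = 0.131, edgeR). When the libraries were scaled so that the markers as a whole were level, edgeR's log2 fold change for Kit was -0.26 (adjusted p = 0.706), while the median over all genes was -2.31.

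**Figure D2:**
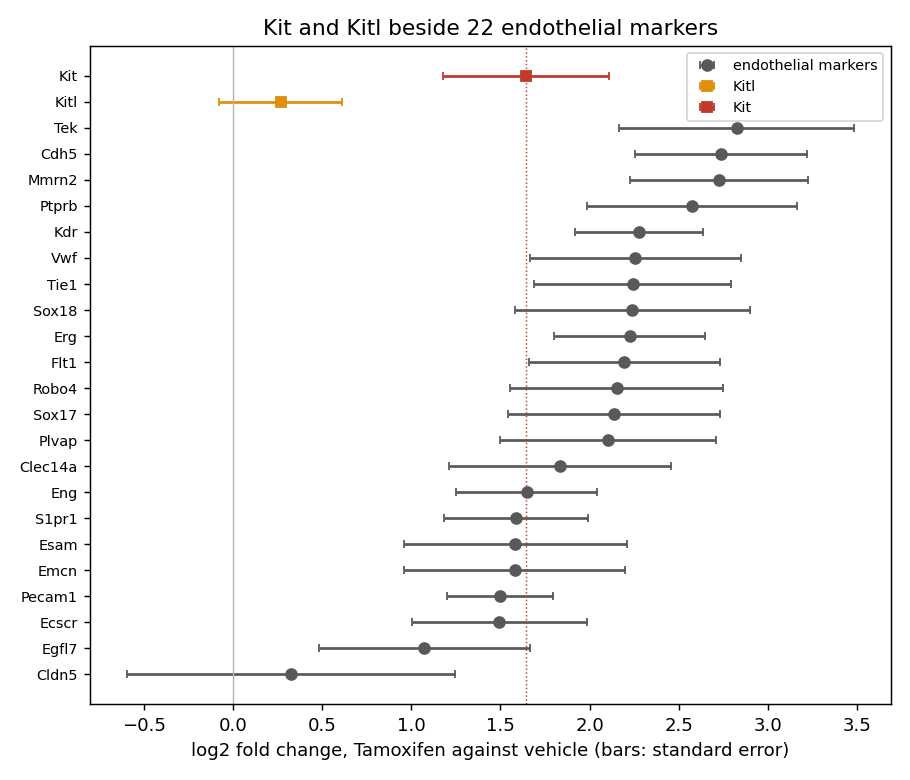
Log2 fold change of Kit, Kitl and the 22 pan-endothelial markers, Tamoxifen against vehicle, with TMM-normalized counts (edgeR, bars are standard errors). The dotted line marks Kit at 1.64, while the markers have a median of 2.14 and Kitl is at 0.27, and the values of Kit and Kitl are -0.26 and -2.13 when the libraries are scaled to these markers.

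Kitl relative to the same markers was at 0.58, 3.13, 0.78 and 0.66 in oil2453, oil2315, oil2653 and oil2368. It was at -0.38, -0.73, -1.45 and -0.32 in Tax2604, Tax2689, Tax2382 and Tax2455. No library overlapped with the other group, and oil2315, which had the fewest endothelial transcripts, was far above the rest. The difference was -2.01 (standard error 0.67, 0.248-fold, exact two-sided permutation p = 0.0286). The markers were themselves higher with Tamoxifen, so most genes fall relative to them. With libraries scaled to the markers, edgeR called 12975 of 14539 genes lower. The median log2 fold change of all genes was then -2.31, beside -2.13 for Kitl. This separation is therefore not particular to Kitl. Kitl differed less between the groups than each of the 22 markers. The level of the ligand stayed in a similar range in libraries whose endothelial markers differed.

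**Figure D3:**
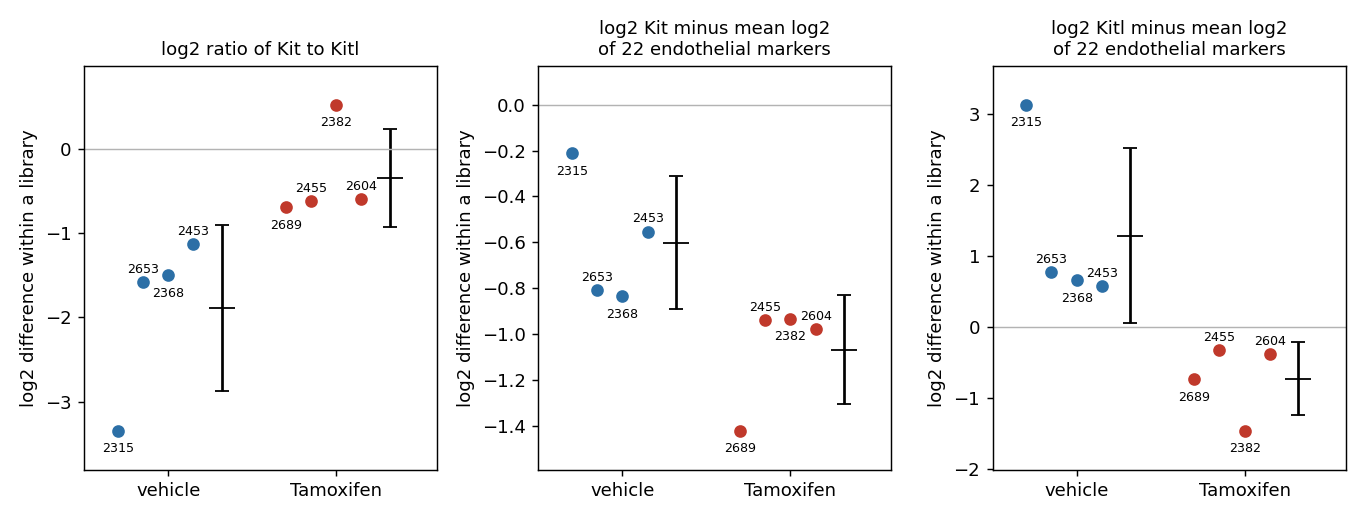
The log2 differences within each library (points, numbered as in the labels), with group means and SD beside them (n = 4). The ratio of Kit to Kitl is higher with Tamoxifen (1.54), whereas Kit and Kitl relative to 22 endothelial markers are lower (-0.47 and -2.01). The markers are themselves higher with Tamoxifen, and most genes fall relative to them.

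Markers of other cells that carry Kit or Kitl, or that the beads could have retained, are given next, and their part in the levels of Kit and Kitl was not tested. Mast cells, which carry much Kit, were present in all libraries. Their markers summed to 140 to 425 CPM with Tamoxifen and 162 to 354 CPM with vehicle, and none of the 9 found of 10 listed was separated between the groups (median log2 fold change 0.22). In oil2315, Hdc alone was at 122 of the 162 CPM, while Cma1, Mcpt4 and Tpsb2 were at 8.06, 9.96 and 11.7 CPM. In the other vehicle libraries Cma1 was at 31.4 to 35.1, Mcpt4 at 33.5 to 55.4 and Tpsb2 at 44.5 to 92.2 CPM. Among vehicle libraries, Hdc and Ms4a2 were not lowest in oil2315. Cpa3, the mast cell carboxypeptidase, was at 15.9, 5.51, 21.3 and 25.2 CPM in oil2453, oil2315, oil2653 and oil2368. It was at 36.7, 36.2, 13.8 and 8.59 CPM in Tax2604, Tax2689, Tax2382 and Tax2455, with overlap of the groups (log2 fold change 0.49, adjusted p = 0.75, edgeR). The library with the lowest Cpa3 level, oil2315, was also the one with the lowest Kit level. Cma1, Mcpt4 and Tpsb2 fell in the same order as Cpa3, from Tax2604 over Tax2689 and Tax2382 to Tax2455. Fcer1a, Ms4a2, Mrgprb1 and Hdc were also highest in Tax2604 and Tax2689 among the Tamoxifen libraries. Tpsab1 of the same list did not keep this order. It was at 94 CPM in Tax2382, compared to 5.29 to 15.6 CPM in the other Tamoxifen libraries. Basophil markers summed to at most 9.9 CPM and melanocyte markers to at most 2.27 CPM in any library. Of 10 hematopoietic progenitor markers only 5 had enough counts to be tested, and 1 of these was separated, a value beside the 5.87% of all genes. It was Mecom, a transcription factor of stem cells that endothelial cells express too (log2 fold change 1.45, adjusted p = 0.119, edgeR). Of the markers of mural cells, which surround the endothelium, 8 of 10 tested were separated (80%, beside 5.87% of all genes), with sums of 637 to 941 CPM with Tamoxifen and 55.4 to 223 CPM with vehicle. Mcam was the largest part of these sums, with 526 of 941 CPM in Tax2604, 263 of 690 CPM in Tax2689 and 152 of 223 CPM in oil2453. Fibroblast markers, a source of Kitl in many tissues, summed to 439 to 3111 CPM with Tamoxifen and 1193 to 2978 CPM with vehicle. Tax2382, the Tamoxifen library with the least Kitl, had the lowest of these sums, but other libraries did not keep this order. Tax2455 had the highest sum (3111 CPM) with Kitl at 75.5 CPM, and Tax2604 had 2086 CPM with Kitl at 146 CPM. The vehicle library oil2315 had 1213 CPM with the highest Kitl of its group (91.1 CPM). Macrophage markers summed to 6738 to 12463 CPM with Tamoxifen and 3396 to 9852 CPM with vehicle. Epithelial markers of tumor cells summed to 110 to 226 CPM and 170 to 758 CPM, respectively. Neutrophil markers summed to 176 to 837 CPM with Tamoxifen and 215 to 1070 CPM with vehicle. T and NK cell markers summed to 19.3 to 51.9 CPM and 14.4 to 200 CPM, and B cell markers to 27 to 81.2 CPM and 11 to 517 CPM, in the same order of groups.

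The genes that carry the signal of Kit were examined next. Of 34 adaptors, kinases and transcription factors downstream of the receptor, all tested, none was called and 1 was separated (2.94%, beside 5.87% of all genes). Their median log2 fold change was 0.12, compared to -0.03 over all genes. The separated gene was Fyn, a Src family kinase, at 61.9 to 96.3 CPM with vehicle and 111 to 163 CPM with Tamoxifen (log2 fold change 0.82, adjusted p = 0.183, edgeR). Among 10 negative regulators of the receptor the median was 0.06 and 1 was separated (10%, beside 5.87% of all genes). This was Sh2b3, the adaptor Lnk that restrains Kit signaling, at 33 to 67.5 CPM with vehicle and 74.4 to 140 CPM with Tamoxifen (0.92, adjusted p = 0.242, edgeR). Of 11 transcription factors that regulate Kit in blood cells, mast cells or melanocytes, 1 was separated (9.09%, beside 5.87% of all genes). The median was 0.03. With so few genes, 1 separated gene in a list is only a value beside that share. The separated factor was Tal1, a basic helix-loop-helix factor of blood and endothelium, at 2.64 to 6.66 CPM with vehicle and 8.9 to 21 CPM with Tamoxifen (1.65, adjusted p = 0.111, edgeR). None of the 4 listed proteases that can release Kitl or Kit was separated (median 0.10). The one with the smallest p was Cma1, a mast cell chymase (0.36, adjusted p = 0.794, edgeR). All these log2 fold changes of single genes were below 0 when the libraries were scaled to the endothelial markers, where the median over all genes was -2.31. Being below 0 under this scaling is therefore not particular to these genes.

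Kit belongs to the class III receptor tyrosine kinases together with Pdgfra, Pdgfrb, Csf1r and Flt3. Of these 4 relatives, Pdgfrb, the receptor of pericytes, was separated, at 6.35 to 13.8 CPM with vehicle and 22 to 42 CPM with Tamoxifen (log2 fold change 1.75, adjusted p = 0.0732, edgeR). Of the 7 ligands of these relatives 2 were separated. With so few genes, 1 of 4 receptors and 2 of 7 ligands are values beside the 5.87% of all genes. They were Pdgfb, the ligand of Pdgfrb that endothelial cells secrete (1.77, adjusted p = 0.11, edgeR), and Pdgfd, another ligand of Pdgfrb (2.14, adjusted p = 0.173). The median of the 7 ligands was -0.26. Pdgfrb and Pdgfb, like Kit, were singled out by the study, and both were below 0 under endothelial scaling (-0.35 and -0.50), whereas Pdgfd was at 0.28. The median over all genes under this scaling was -2.31. Pdgfb was at 42.5 to 118 CPM with vehicle and 152 to 381 CPM with Tamoxifen. Pdgfd was at 0.602 to 5.57 CPM with vehicle and 7.9 to 18.4 CPM with Tamoxifen.

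Kit lies in a cluster with Pdgfra and Kdr, which also encode receptor tyrosine kinases. Within 1 Mb of Kit the table lists 27 other genes, of which 11 were tested and 1 was separated, a value beside the 5.87% of all genes. This was Kdr, VEGF receptor 2, which lies 276 kb after Kit and was at 17.3 to 43.9 CPM with vehicle and 91 to 178 CPM with Tamoxifen (log2 fold change 2.28, adjusted p = 0.0732, edgeR). Pdgfra, 377 kb before Kit and a receptor of fibroblasts, was at 20.8 to 50.1 CPM with vehicle and 3.57 to 43.9 CPM with Tamoxifen (-0.45, adjusted p = 0.791, edgeR). The lowest value among the tested neighbors was that of Chic2, 530 kb before Kit (-0.52, adjusted p = 0.505, edgeR). Fip1l1, Srd5a3, Tmem165, Clock, Exoc1, Cep135 and 2 genes without a symbol overlapped between the groups too. Within 1 Mb of Kitl 28 other genes are listed, of which 10 were tested and none was separated. The neighbor with the smallest p was Dusp6, a phosphatase that turns off ERK, 748 kb before Kitl (-0.50, adjusted p = 0.481, edgeR). The others with a symbol were Atp2b1, Poc1b, Galnt4, Gad1-ps, Tmtc3, Cep290 and 4930430F08Rik.

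**Figure D4:**
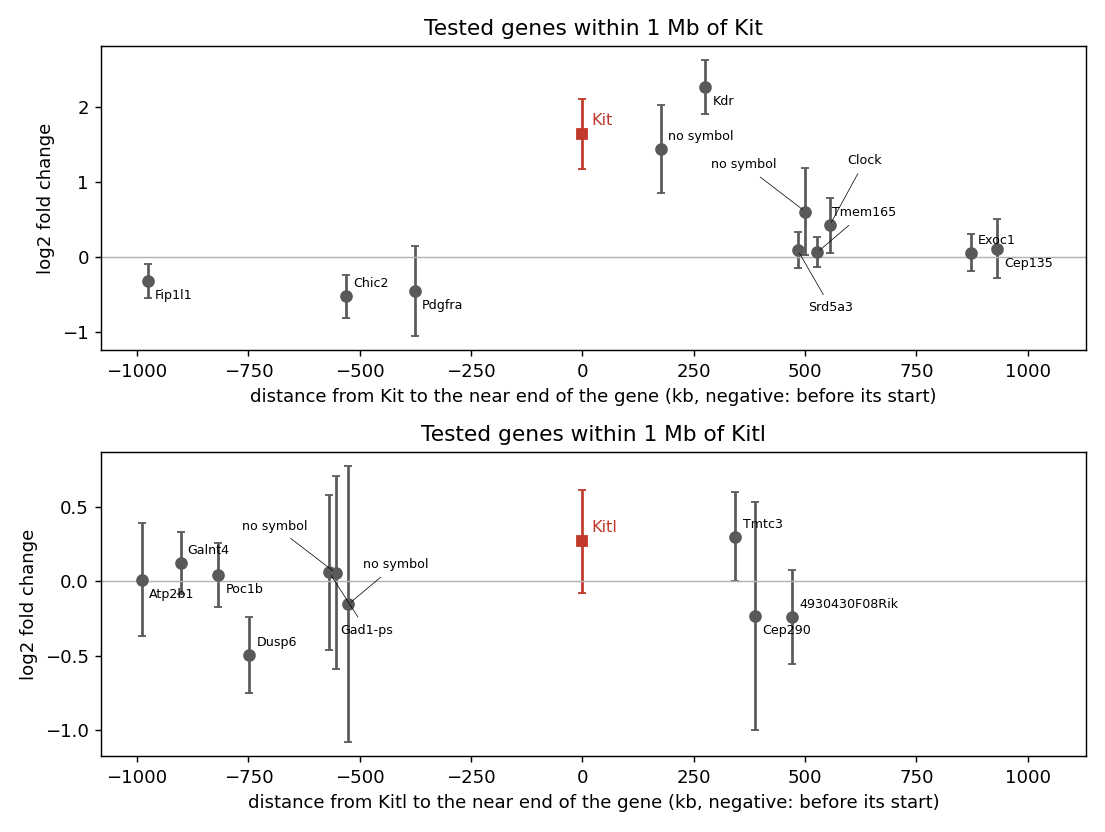
Log2 fold changes (TMM, edgeR, bars are standard errors) of the tested genes within 1 Mb of Kit (upper) and Kitl (lower) against their distance. Near Kit only Kdr, at 2.28, had groups that did not overlap (1 of 11 tested, beside 5.87% of all genes), and near Kitl no gene did.

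The profiles of receptor and ligand over the 8 libraries were compared with those of 13240 tested genes with a mean of at least 1 CPM. The measure was the SD over libraries of the log2 ratio of the gene to Kit or Kitl, where 0 is a parallel profile. As libraries share endothelial content and depth, this is a description. The 10 genes most like Kit were Kalrn, Ptprk, Atp9a, Ephb4, Stap2, Plat, Eng, Dbn1, Zbtb46 and Sparc, with SDs from 0.0861 to 0.219. The median SD over all genes was 1.28. Kalrn was at 0.278 to 2.71 CPM with vehicle and 3.57 to 8.49 CPM with Tamoxifen (log2 fold change 2.04, adjusted p = 0.243, edgeR). Its place as the nearest gene depended on the pseudocount of 0.5 CPM. With a pseudocount of 0.1, Kalrn was not among the nearest 10 and Ptprk came first. Ptprk, a receptor tyrosine phosphatase, was at 4.36 to 18.3 CPM with vehicle and 23.5 to 49.6 CPM with Tamoxifen (1.71, adjusted p = 0.17, edgeR). Ephb4, an Eph receptor of venous endothelium, was at 5 to 23.1 CPM with vehicle and 25.1 to 56 CPM with Tamoxifen (1.69, adjusted p = 0.172, edgeR). Eng was the only pan-endothelial marker among the 10, at 29.6 to 103 CPM with vehicle and 133 to 252 CPM with Tamoxifen. Sparc encodes a secreted matrix protein and Plat the tissue plasminogen activator, whose groups overlapped as the only one of the 10. Kalrn, Ptprk, Atp9a and Ephb4 remained among the 10 nearest genes whichever single library was left out. Kitl was at place 2570 in its likeness to Kit, with an SD of 1.12.

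The 10 genes most like Kitl were Fam179b, Ccrn4l, Lmbr1, Ankrd28, Arl13b, Tsc22d2, Rfx2, Ptar1, Gm10040 and Inf2, with SDs from 0.217 to 0.243 beside a median of 0.71. This group was unstable, as only 1 of the 10 stayed when Tax2604 or Tax2382 was left out. None of them is an endothelial marker of the list used here. Kit was at place 11728 in its likeness to Kitl.

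**Figure D5:**
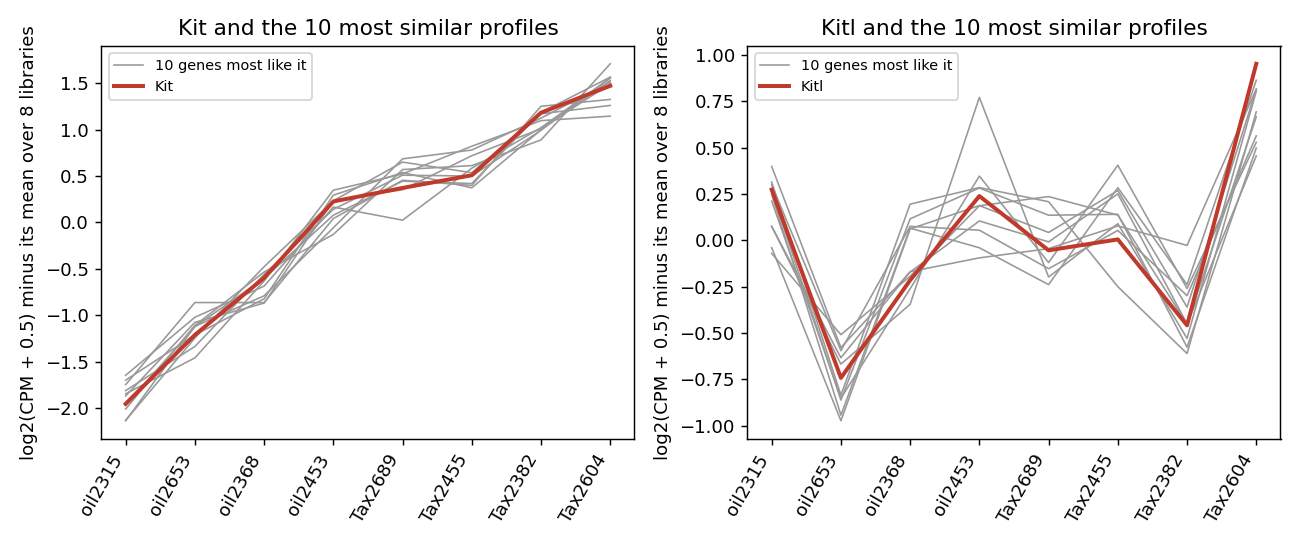
Log2(CPM + 0.5) of Kit (left) and Kitl (right) in red and of the 10 genes most like each in gray, each minus its own mean over the 8 libraries. The libraries stand in the order of the Kit level within each group, from 8.53 CPM in oil2315 to 96.2 CPM in Tax2604, and Kitl has its lowest levels in oil2653 and Tax2382.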

How the data were processed

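RNA sequencing counts of 8 libraries were analysed from the deposited gene table. According to the methods and the submitters' processing notes, the authors removed adapter, poly-N and low quality reads, and TopHat2 2.0.12, Bowtie2 2.2.3 and HTSeq 0.6.1 are named. The notes give the build mm8, whereas the positions match GRCm38. The deposited counts are unnormalized whole numbers per gene. The deposited FPKM values were computed by the authors per gene length and sequencing depth. The table also holds the authors' fold changes, p-values and group means of normalized counts (a signal), which were not used, and no per-sample column of another series was found. Whether reads were counted by strand is not stated in these sources.

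Kit and Kitl were matched by symbol. The members, gene lists, tests and alternatives were chosen with earlier results of these data known. In R 4.3.3, edgeR 4.0.16 fitted Tamoxifen against vehicle to TMM-normalized counts of 14539 genes kept by its filter (minimum count 10), with Benjamini-Hochberg adjustment over all of them. DESeq2 1.42.0 and limma 3.58.1 served as alternatives, with other scalings and filters and without each library in turn. The fits were tested on simulated counts. For single values, exact permutation tests (two-sided) ran over the 70 assignments of libraries to groups. Lists are given by counts and medians without a set test. The text names list members whose groups do not overlap (at most 4 a list, else the one with the smallest p), tested genes within 1 Mb, the 10 genes most like Kit and Kitl, Ppard and markers. Other genes named beside these were chosen after their values were seen. Promoter sequences are from RefSeq (GRCm38.p6) and transcripts from GENCODE M21.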

Additional observations from a re-analysis of the deposited data

Results flagged for a closer look

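Values that lay far from the other 3 of their group by Dixon's criterion were looked for in 52 groups, of which chance marks about 1 in 20, and 6 were found. The log2 ratio of Kit to Kitl was 0.52 in Tax2382, compared to -0.69 to -0.60 in the other Tamoxifen libraries, so that this library alone had more receptor than ligand transcript per gene length. Relative to the pan-endothelial markers, Kit was at -1.42 in Tax2689, compared to -0.98 to -0.93 in the other Tamoxifen libraries. Tax2689 is the Tamoxifen library with the lowest Kit level and with Y-linked reads. Its Ppard level was also apart, at 70.8 CPM, compared to 118 to 122 CPM in the others. Tax2455, within that range of Ppard, had a Kit level of 49.1 CPM, compared to 44.6 CPM in Tax2689. Kitl relative to the same markers was at 3.13 in oil2315, whereas the remaining vehicle libraries were at 0.58 to 0.78. The mast cell chymase Cma1 was at 8.06 CPM in oil2315 and at 31.4 to 35.1 CPM in the other vehicle libraries. Mecom was at 37.5 CPM in Tax2604 and at 21 to 23.8 CPM in the other Tamoxifen libraries. Their causes were not tested.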

How the results depend on the processing

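The log2 fold change of Kit stayed above 0 under each alternative but one. It was called by DESeq2 (1.63) and by limma-trend on FPKM with a pseudocount of 1 (1.78) or 0.1 (1.90), and ranged from 1.36 to 2.14 when single libraries were left out, with a call only without oil2453. Scaling to the pan-endothelial markers moved the median of all genes to -2.31. It gave Kit -0.26, Kitl -2.13 (adjusted p = 0.00285), Ppard -1.82, Fyn -1.45, Sh2b3 -1.56, Tal1 -0.45, Pdgfrb -0.35, Pdgfb -0.50, Cma1 -1.60, Cpa3 -1.52, Pecam1 -0.69, Eng -0.36, Mecom -0.78, Ptprk -0.22 and Ephb4 -0.21. Other genes stayed above 0 under it, namely Tek (0.92), Cdh5 (0.78), Pdgfd (0.28), Kalrn (0.25) and Kdr (0.09). Kitl ranged from -0.073 to 0.437 without single libraries. The ratio of Kit to Kitl ranged from 1.06 to 1.80 without single libraries, with an exact permutation p of 0.0571 whenever a Tamoxifen library was left out. Kit relative to the markers ranged from -0.544 to -0.336 without single libraries (exact permutation p up to 0.0857), was -0.39 relative to the median marker, and turned to 0.27 relative to Pecam1. Kitl relative to them kept its direction and its side of the threshold under all 14 alternatives. The number of called genes was 0 with all libraries, 177 with library size alone, 12977 under endothelial scaling, 574 with DESeq2, 68 without a low-count filter and 0 to 256 without single libraries. The causes were not tested. No paired analysis was possible because the groups share no replicate numbers. With 4 libraries a group, the 95% interval of the log2 fold change is 0.73 to 2.56 for Kit and -0.41 to 0.95 for Kitl. These intervals use a normal approximation and are narrow for so few libraries. Tests of how many similar genes remained were added after seeing the data.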
